A study of Mus musculus with 6 samples.

Results

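Elastic fibres give tissues the ability to stretch and recoil, and the 10 genes described here encode their main building blocks: *Eln*, *Fbn1*, *Fbn2*, *Fbln1*, *Fbln2*, *Fbln5*, *Efemp1*, *Efemp2*, *Emilin1* and *Mfap5*. They were chosen by name as a family from the 47069 genes counted in each mouse. All 10 genes passed the filter on low counts, which left 17667 genes for the test. RNA had been sequenced from the inguinal subcutaneous white adipose tissue (SC-WAT) of 3 *Egr1*+/+ and 3 *Egr1*-/- female C57BL/6 mice at 2 weeks of age, 1 library per mouse, with no cold exposure or other stimulation. In the *Egr1*-/- line the gene is inactivated in every cell of the body, by a *LacZ* insertion and a frameshift ahead of the zinc fingers, so RNA from the locus can still be made and counted. The study asked which genes depend on *Egr1*, a zinc finger transcription factor, in this fat depot. Among the mice, 1 *Egr1*+/+ and 1 *Egr1*-/- animal were littermates, which the sources used here do not name.

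An elastic fibre has a core of crosslinked elastin, laid down on a sheath of fibrillin microfibrils. Fibrillins polymerise outside the cell, fibulins and EMILINs bind elastin to this scaffold, and lysyl oxidases then crosslink the elastin monomers. Microfibrils also exist without elastin, and they hold latent TGF-beta and BMP complexes in the matrix. In fat, fibroblasts and adipocyte progenitors make much of this matrix, which surrounds adipocytes and vessel walls, and the tail of profibrillin-1 is cleaved off as the fasting hormone asprosin.

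The counts on genes ran from 29661984 to 42357981 per mouse. Mitochondrial genes took 50.0% to 57.4% of them in *Egr1*+/+ mice and 54.9% to 66.3% in *Egr1*-/- mice, the highest share being that of *Egr1*-/- mouse 1. The *Egr1* locus gave 353, 241 and 711 counts in the wild-type mice but only 103, 84 and 57 in the mutants (log2 fold change -2.19, standard error 0.299, edgeR adjusted p = 0.0879), so the groups were separate and followed the labels. Expression is given below in CPM, counts scaled to the library size after normalization by edgeR's TMM method. Where the levels of different genes are compared, they are given per kilobase of annotated exon (RPKM). Fold changes are log2 values of *Egr1*-/- over *Egr1*+/+ from the quasi-likelihood fit of edgeR, whose Benjamini-Hochberg adjustment covered all 17667 genes. All 10 genes are protein-coding, their counts are over exons, and positions are those of GRCm38.

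The promoters of 3 of the genes are shown because they bear on the question of direct regulation. *Fbn1* and *Efemp1* had the most negative log2 fold changes of the 10 genes, and *Fbln1* had the only EGR1 motif among the genes searched. RefSeq windows of GRCm38 ran from 250 bases before to 50 bases after a transcription start site. Those used here covered 7 of the 10 genes and numbered 11 in all. No window of *Eln*, *Fbn2* or *Mfap5* was used, so these genes were not searched. Their absence does not show that RefSeq lacks a start site for them. The RefSeq start site of *Fbn1* lies within the gene as GENCODE annotates it, downstream of its outermost 5′ end. Both strands were searched for the EGR1 motif, as GCGTGGGCG or GCGGGGGCG. The same windows were searched for the GC box, spelled GGGCGG, which promoters of many broadly expressed genes carry. The third search was for the TATA box, a core promoter element, spelled TATAAA. Below, the 250 bases before the start site are given 5′ to 3′ on the strand of the gene, with matches to the EGR1 motif or the GC box in capitals.
Fbn1, chr2:125506439-125506688, minus strand: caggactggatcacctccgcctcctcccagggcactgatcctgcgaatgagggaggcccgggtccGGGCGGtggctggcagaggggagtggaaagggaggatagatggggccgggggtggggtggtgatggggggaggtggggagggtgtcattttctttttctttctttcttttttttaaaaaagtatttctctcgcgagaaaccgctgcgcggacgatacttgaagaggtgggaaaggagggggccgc
Efemp1, chr11:28852955-28853204, plus strand: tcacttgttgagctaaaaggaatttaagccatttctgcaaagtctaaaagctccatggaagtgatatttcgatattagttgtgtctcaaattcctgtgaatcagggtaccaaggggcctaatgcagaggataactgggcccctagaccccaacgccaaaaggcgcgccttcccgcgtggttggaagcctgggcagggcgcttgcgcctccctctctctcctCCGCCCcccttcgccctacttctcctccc
Fbln1, chr15:85205758-85206007, plus strand: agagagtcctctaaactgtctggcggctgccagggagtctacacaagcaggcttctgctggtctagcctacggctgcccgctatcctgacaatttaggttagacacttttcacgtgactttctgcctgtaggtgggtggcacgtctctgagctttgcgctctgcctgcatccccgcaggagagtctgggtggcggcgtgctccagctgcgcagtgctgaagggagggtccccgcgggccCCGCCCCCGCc
The EGR1 motif was matched in 1 of the 11 windows, the *Fbln1* window above, at bases -10 to -2 on the opposite strand, where it overlaps a GC box. Over all genes, 3.47% of 32851 windows held this motif. The other *Fbln1* window, for a start site slightly upstream, had no match to this motif. A GC box was found in 8 of the 11 windows, covering 6 of the 7 genes, against 35.7% of all windows and 38.2% of all genes. The exception was *Emilin1*. The TATA box was matched in 0 of the 11 windows and in 13.6% of all windows. These matches describe letters within a short window and do not locate EGR1 binding.

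All 10 genes had a negative log2 fold change in *Egr1*-/- SC-WAT, from -0.88 to -0.20 with a median of -0.38, while the median of all 17667 tested genes was 0.0011 and 49.9% of them were below 0. The largest differences were those of *Fbn1* and *Efemp1*, at 54.2% and 55.1% of the *Egr1*+/+ level. None of the 10 passed the adjusted threshold of 0.05 in edgeR, where 0.017% of all tested genes passed and 0 of these were lower. At an unadjusted p under 0.05, 4 of the 10 were lower (*Fbn1*, *Efemp1*, *Fbln2* and *Eln*), against 5.6% of all tested genes. For the same 4 genes the highest *Egr1*-/- value was below the lowest *Egr1*+/+ value, a separation seen in 8.1% of all tested genes. In DESeq2 *Fbn1* and *Efemp1* passed the adjusted threshold, where 1.34% of the tested genes passed as lower and 0.73% as higher. With limma-voom 0 of the 10 passed, against 0.00566% of all tested genes.

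**Figure D1:**
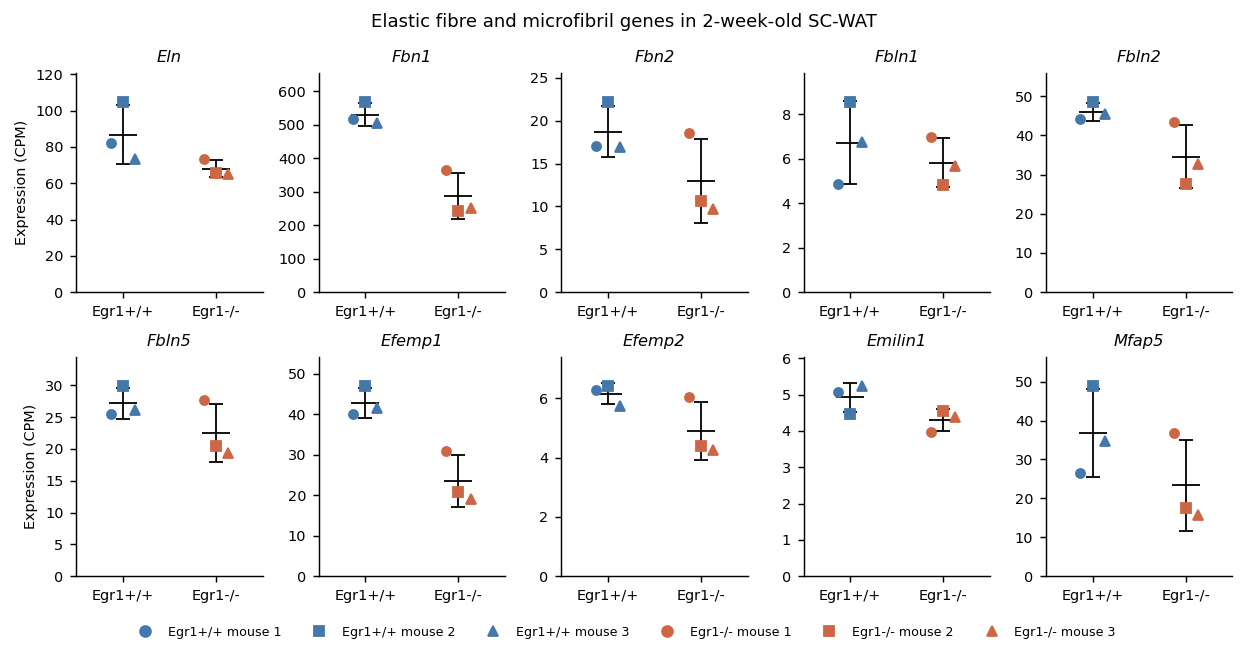
Expression (CPM, linear axes from 0) of the 10 genes in each of 3 Egr1+/+ and 3 Egr1-/- mice; symbols are mice, and the bars show the mean and SD of each genotype. For Fbn1 and Efemp1 the genotypes are clearly apart, while for Mfap5, Fbn2 and Fbln1 the values of Egr1-/- mouse 1 (red circles) lie among those of the Egr1+/+ mice.

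*Fbn1* encodes fibrillin-1, the main structural protein of microfibrils (ENSMUSG00000027204.13, chromosome 2, 125300594 to 125507993, minus strand). It had 516, 568 and 505 CPM in the *Egr1*+/+ mice and 365, 244 and 253 CPM in the *Egr1*-/- mice. The groups did not overlap, and *Egr1*-/- mouse 1 was the highest of its genotype. The mean was 530 ± 34.04 CPM (SD, n = 3) in wild-type and 287 ± 67.5 CPM (SD, n = 3) in mutant mice, and the log2 fold change was -0.88 (standard error 0.174, 95% interval -1.28 to -0.49). The edgeR p was 0.000654 before and 0.16 after Benjamini-Hochberg adjustment, and the p of *Fbn1* ranked 69 among all tested genes. With each mouse left out in turn, the log2 fold change ran from -1.09 to -0.78. *Gm9913*, a gene on the opposite strand whose exons cover 20.1% of those of *Fbn1*, had between 2 and 10 counts per mouse. These counts do not show whether reads over the shared exons were assigned to *Fbn1* or left out.

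*Fbn2*, the fibrillin most used in the embryo and in newborn tissue (ENSMUSG00000024598.8, chromosome 18, 58008623 to 58210487, minus strand), was far lower in level. Its values were 17.1, 22.2 and 16.9 CPM in *Egr1*+/+ mice and 18.5, 10.7 and 9.70 CPM in *Egr1*-/- mice. *Egr1*-/- mouse 1 lay within the *Egr1*+/+ range, and the other two *Egr1*-/- mice lay below it. Its log2 fold change of -0.53 (standard error 0.239, edgeR unadjusted p = 0.0542) had a 95% interval of -1.07 to 0.012. Its unadjusted p was 0.0273 in DESeq2, 0.0371 in limma-voom and 0.0377 in edgeR when blocked on replicate number. Without *Egr1*-/- mouse 1 it was -0.88, with an edgeR p of 0.000725 before and 0.0733 after adjustment. Per length, *Fbn1* exceeded *Fbn2* by 31.1 ± 2.77 times (SD, n = 3) in *Egr1*+/+ mice and by 24.9 ± 3.47 times (SD, n = 3) in *Egr1*-/- mice, and these ratios overlapped between the genotypes.

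*Mfap5* encodes MAGP-2, a small glycoprotein that binds fibrillins along the microfibril (ENSMUSG00000030116.14, chromosome 6, 122505845 to 122529290, plus strand). It was measured at 26.6, 48.9 and 34.7 CPM in *Egr1*+/+ mice and at 36.9, 17.5 and 15.7 CPM in *Egr1*-/- mice. This was the most variable of the 10 genes within a genotype, and the 3 *Egr1*+/+ mice spanned a wider range than the difference between the genotype means. The log2 fold change was -0.65 (standard error 0.329, edgeR unadjusted p = 0.0793), with a 95% interval from 38.1% to 107% of the *Egr1*+/+ level. Leaving out *Egr1*-/- mouse 1 gave -1.14 (edgeR unadjusted p = 0.00139, adjusted p = 0.101), and leaving out *Egr1*+/+ mouse 2 gave -0.39.

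*Eln* encodes tropoelastin, the monomer of the elastic core (ENSMUSG00000029675.12, chromosome 5, 134702593 to 134747323, minus strand). The *Egr1*+/+ mice had 81.9, 105 and 73.4 CPM and the *Egr1*-/- mice 73.3, 65.8 and 64.8 CPM. The genotypes were separate by a margin of less than 1 CPM, between *Egr1*+/+ mouse 3 and *Egr1*-/- mouse 1. The log2 fold change was -0.35 (standard error 0.148, edgeR unadjusted p = 0.0412, adjusted p = 0.445), with a 95% interval from 62.2% to 98.8% of the *Egr1*+/+ level. It was -0.19 without *Egr1*+/+ mouse 2, the highest value, and the unadjusted p was no longer under 0.05 without that mouse, *Egr1*-/- mouse 2 or *Egr1*-/- mouse 3, or when blocked on replicate number (edgeR unadjusted p = 0.0527). Because *Fbn1* differed more than *Eln*, the ratio of *Fbn1* to *Eln* per length was 4.21, 3.62 and 4.59 in the wild-type mice, compared with 3.32, 2.47 and 2.60 in the mutants. Every *Egr1*-/- ratio was below every *Egr1*+/+ ratio, for a pair of genes that was chosen after their values were seen.

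The fibulins join elastin to the microfibrils and to basement membranes, and log2 fold changes ran from -0.86 to -0.21 over the 5 family members here. *Efemp1* (fibulin-3; ENSMUSG00000020467.15, chromosome 11, 28853204 to 28926743, plus strand) had 40.0, 47.0 and 41.7 CPM in *Egr1*+/+ mice and 31.0, 20.8 and 19.1 CPM in *Egr1*-/- mice. The groups were separate, again with *Egr1*-/- mouse 1 nearest to the *Egr1*+/+ mice. The log2 fold change was -0.86 (standard error 0.181, 95% interval -1.27 to -0.45), with an edgeR p of 0.00103 before and 0.172 after adjustment. It lay between -1.10 and -0.73 with each mouse left out. Of all pairs among the 10 genes, *Efemp1* and *Fbn1* had the most alike profiles over the 6 mice, with a root mean square difference of 0.0651 between their centred log2 CPM.

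*Efemp2* (fibulin-4; ENSMUSG00000024909.14, chromosome 19, 5473954 to 5482517, plus strand), which brings lysyl oxidase to tropoelastin, had 6.29, 6.43 and 5.75 CPM in *Egr1*+/+ mice and 6.03, 4.39 and 4.27 CPM in *Egr1*-/- mice. One *Egr1*-/- mouse, number 1, lay within the *Egr1*+/+ range. Its log2 fold change was -0.33 (standard error 0.185, edgeR unadjusted p = 0.11), with a 95% interval from 59.6% to 106.5% of the *Egr1*+/+ level. The exons of *Mus81* on the opposite strand overlap 4.57% of those of *Efemp2*. *Mus81* had 144 to 249 counts per mouse and *Efemp2* 132 to 248. The strand setting of the counting is not given in the sources used here. Reads over the shared exons may thus have been assigned to either gene or to neither. Per length, the ratio of *Efemp1* to *Efemp2* was 12.97 ± 0.991 (SD, n = 3) in *Egr1*+/+ mice and 8.89 ± 0.616 (SD, n = 3) in *Egr1*-/- mice. This pair, too, was chosen with the values known.

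*Fbln2* (ENSMUSG00000064080.12, chromosome 6, 91212455 to 91272540, plus strand), a fibulin at the border of elastin and microfibrils, had 44.1, 48.5 and 45.4 CPM in *Egr1*+/+ mice and 43.3, 27.6 and 32.7 CPM in *Egr1*-/- mice. Its log2 fold change was -0.41 (standard error 0.161, edgeR unadjusted p = 0.03, adjusted p = 0.403). The separation of its groups came down to 43.3 against 44.1 CPM, and the unadjusted p was no longer under 0.05 without *Egr1*+/+ mouse 2 or 3 or *Egr1*-/- mouse 2 or 3. *Fbln5* (ENSMUSG00000021186.8, chromosome 12, 101746565 to 101819055, minus strand) encodes a fibulin that binds both tropoelastin and cell-surface integrins. It ranged from 25.4 to 29.9 CPM in *Egr1*+/+ mice and from 19.3 to 27.7 CPM in the mutants, and its log2 fold change of -0.27 (standard error 0.154, edgeR unadjusted p = 0.113) had a 95% interval of -0.62 to 0.078. Its genotypes overlapped through *Egr1*-/- mouse 1. *Fbln1* (ENSMUSG00000006369.14, chromosome 15, 85205949 to 85286535, plus strand), a fibulin of elastic cores and basement membranes, had 4.86, 8.56 and 6.75 CPM in *Egr1*+/+ mice and 6.99, 4.81 and 5.66 CPM in *Egr1*-/- mice. The spread between mice of a genotype was larger than the difference between the means for *Fbln1*, whose promoter holds the EGR1 motif shown above. The log2 fold change was -0.21 (standard error 0.234, edgeR unadjusted p = 0.403), its 95% interval ran from 60.1% to 125% of the *Egr1*+/+ level, and it was 0.0024 without *Egr1*+/+ mouse 2.

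*Emilin1* encodes a glycoprotein found at the interface of elastin and microfibrils that restrains TGF-beta processing (ENSMUSG00000029163.9, chromosome 5, 30913402 to 30921277, plus strand). It had 5.06, 4.46 and 5.24 CPM in *Egr1*+/+ mice and 3.96, 4.55 and 4.40 CPM in *Egr1*-/- mice. Its log2 fold change of -0.20 (standard error 0.167, edgeR unadjusted p = 0.273) was the smallest of the 10, with a 95% interval from 67.2% to 113.5% of the *Egr1*+/+ level. It was also the gene in which *Egr1*-/- mouse 1 was the lowest of all 6 mice. With 132 to 226 counts per mouse, *Emilin1* was among the least counted of the 10 genes, while *Fbn1* had 7546 to 21749 counts.

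**Figure D2:**
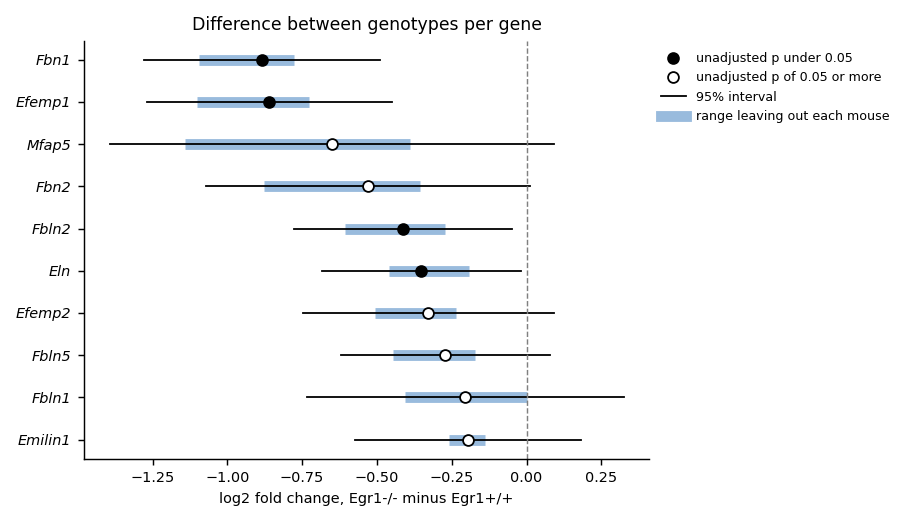
Log2 fold change of each gene (x axis, Egr1-/- minus Egr1+/+) with its 95% interval from the edgeR fit (thin line) and its range when each of the 6 mice is left out (wide bar). The 4 filled points have an unadjusted p under 0.05, and the leave-one-out range reaches 0 for Fbln1 alone.

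The order of the levels was nearly the same in both genotypes. Per kilobase of exon, *Fbn1* was the highest with 43.7 ± 2.81 RPKM (SD, n = 3) in *Egr1*+/+ mice, followed by *Efemp1* with 21.1 ± 1.81 RPKM. *Eln* (10.7 ± 2.02 RPKM) and *Mfap5* (10.2 ± 3.14 RPKM) overlapped each other, and *Mfap5* overlapped *Fbln2* (7.22 ± 0.36 RPKM). *Fbln5* stood alone at 3.92 ± 0.35 RPKM. *Efemp2*, *Fbln1* and *Fbn2* followed at 1.63, 1.54 and 1.42 RPKM, separate from *Fbln5* above and *Emilin1* below but not from each other, and *Emilin1* was last at 0.997 ± 0.083 RPKM. In *Egr1*-/- mice the first was again *Fbn1*, at 23.7 ± 5.56 RPKM (SD, n = 3), and *Fbln1* and *Efemp2* exchanged places at 1.33 and 1.29 RPKM. *Fbn1* made up 65.7% of the summed CPM of the 10 genes in *Egr1*+/+ and 58.9% in *Egr1*-/- SC-WAT, while the share of *Eln* was 10.8% and 14.0%. The sum of the 10 genes was 768, 889 and 760 CPM in *Egr1*+/+ mice and 612, 420 and 428 CPM in *Egr1*-/- mice, and this sum is mostly *Fbn1*.

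*Egr1*-/- mouse 1 stood apart from the other *Egr1*-/- mice in these genes. When each gene was centred on its own mean over the 6 mice, the mean of the 10 genes was 0.12, 0.42 and 0.19 on the log2 scale in wild-type mice, against 0.096, -0.41 and -0.42 in mutants. In *Egr1*-/- mice 2 and 3 all 10 genes were below their mean, and in *Egr1*-/- mouse 1 only 4 were, namely *Eln*, *Fbn1*, *Efemp1* and *Emilin1*. This was also the mouse with the highest mitochondrial share and the most counts. Outside mitochondrial genes its 14292061 counts lay between those of *Egr1*+/+ mice 2 and 1 (13062221 and 15039325). With mitochondrial genes left out of the edgeR fit, the median log2 fold change of the 10 genes was -0.38. In that fit 4 were lower at an unadjusted p under 0.05, against 5.52% of all genes. The part of the mitochondrial share or the counts in the values of this mouse was not tested. Without *Egr1*-/- mouse 1, 8 of the 10 genes were lower at an unadjusted p under 0.05, *Fbln1* and *Emilin1* being the others, against 7.26% of all genes tested without it. *Fbn1* and *Efemp1* then passed the adjusted threshold (edgeR adjusted p = 0.0484 for both), as did 0.323% of all genes. Without *Egr1*+/+ mouse 2, *Egr1*-/- mouse 2 or *Egr1*-/- mouse 3 the count at an unadjusted p under 0.05 was 2, and these were *Fbn1* and *Efemp1* each time, against 5.99%, 4.1% and 3.8% of all genes in turn.

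**Figure D3:**
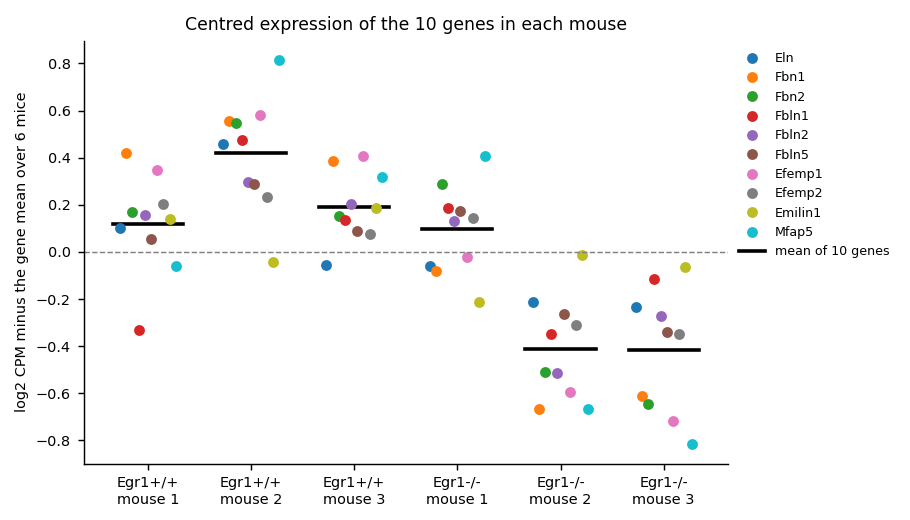
Log2 CPM of each of the 10 genes minus its mean over the 6 mice (y axis) in each mouse (x axis), with black bars for the mean of the 10 genes. The bar of Egr1-/- mouse 1, at 0.096, lies near those of the Egr1+/+ mice, while the bars of Egr1-/- mice 2 and 3 are at -0.41 and -0.42.

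The remaining genes of the elastic fibre system, those that crosslink, anchor, sense or degrade it, were followed in a list of 44 genes, of which 42 could be tested and *Emilin3* and *Elane*, with at most 7 and 10 counts in a mouse, could not. In *Egr1*-/- SC-WAT, 36 of the 42 had a negative and 6 a positive log2 fold change, with a median of -0.26. At an unadjusted p under 0.05, 14 were lower and 2 higher, against 5.6% and 5.06% of all tested genes, and 26 did not pass. By edgeR 0 of the 42 passed the adjusted threshold, while DESeq2 gave 7 lower and 0 higher, against 1.34% and 0.73% of all tested genes.

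The other two microfibril-associated proteins of the list had the largest differences, exceeding those of the 10 genes. *Mfap2*, which encodes MAGP-1, the partner of MAGP-2 on fibrillin, had 5.73, 6.19 and 6.96 CPM in *Egr1*+/+ mice and 3.99, 2.16 and 2.49 CPM in *Egr1*-/- mice. Its log2 fold change was -1.13 (standard error 0.245, edgeR unadjusted p = 0.00128, adjusted p = 0.185). *Mfap4*, an integrin-binding microfibril protein that promotes elastin assembly, had 18.7, 9.89 and 16.4 CPM in *Egr1*+/+ mice and 7.98, 7.49 and 6.21 CPM in *Egr1*-/- mice. Both genes were separate between the genotypes, and for *Mfap4* the log2 fold change was -1.05 (standard error 0.228, edgeR unadjusted p = 0.00125, adjusted p = 0.183). In DESeq2 both passed, with adjusted p-values of 0.00346 and 0.00206 (Benjamini-Hochberg adjustment).

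All 5 lysyl oxidases, which crosslink elastin and collagen, had negative values, and 2 of them had an unadjusted p under 0.05. *Loxl2* was at 33.03 to 33.97 CPM in *Egr1*+/+ and 19.9 to 29.3 CPM in *Egr1*-/- mice (log2 fold change -0.49, standard error 0.149), and *Loxl3* at -0.52 (standard error 0.209). *Lox* itself, at -0.28 (standard error 0.164), overlapped between genotypes. The latent TGF-beta binding proteins, which dock TGF-beta on microfibrils, went in both directions. *Ltbp1* had 32.0 to 37.4 CPM in *Egr1*+/+ and 23.7 to 28.4 CPM in *Egr1*-/- mice (log2 fold change -0.41, standard error 0.122). *Ltbp2*, which binds fibulin-5 and does not bind TGF-beta, had 9.76 to 12.0 CPM in *Egr1*+/+ and 12.4 to 17.2 CPM in *Egr1*-/- mice (log2 fold change 0.43, standard error 0.156). The genotypes did not overlap for either, and both had an unadjusted but not an adjusted p under 0.05 in edgeR.

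Among the relatives of *Emilin1*, *Emilin2* had a log2 fold change of -0.73 (standard error 0.198), with separate genotypes, and *Mmrn1* one of -0.68 (standard error 0.289). Of the other fibulin family members *Fbln7*, *Hmcn1* and *Hmcn2*, none had an unadjusted p under 0.05. Among 9 ADAMTS and ADAMTS-like genes, a family that acts on fibrillin assembly, *Adamtsl4* (-0.67, standard error 0.183) and *Adamtsl1* (-0.57, standard error 0.215) did. Of 6 elastin-degrading proteases, 3 were lower at an unadjusted p under 0.05: *Ctsk* by a log2 fold change of -0.75 (standard error 0.156), *Mmp2* by -0.52 (standard error 0.135) and *Ctsl* by -0.48 (standard error 0.122), each with separate genotypes. *Ctss* was at -0.0022. In the elastin receptor complex, *Neu1*, its sialidase, was higher, at 0.29 (standard error 0.128, edgeR unadjusted p = 0.0481, or 0.0744 when blocked on replicate number). Of 7 integrin subunits that bind fibrillins or fibulins, *Itgb8* (-0.39, standard error 0.132) and *Itgb3* (-0.36, standard error 0.127) were lower at an unadjusted p under 0.05, while *Itgav* and *Itga5* were at -0.05 and -0.01. None of these passed the edgeR adjusted threshold, while *Emilin2*, *Adamtsl4*, *Ctsk*, *Mmp2* and *Ctsl* passed that of DESeq2. *Mmp2* had already been picked by the study from the same mice. The study also reported lower *Mmp2* RNA by RT-qPCR in SC-WAT of *Egr1*-/- mice of this age and of adult mice.

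**Figure D4:**
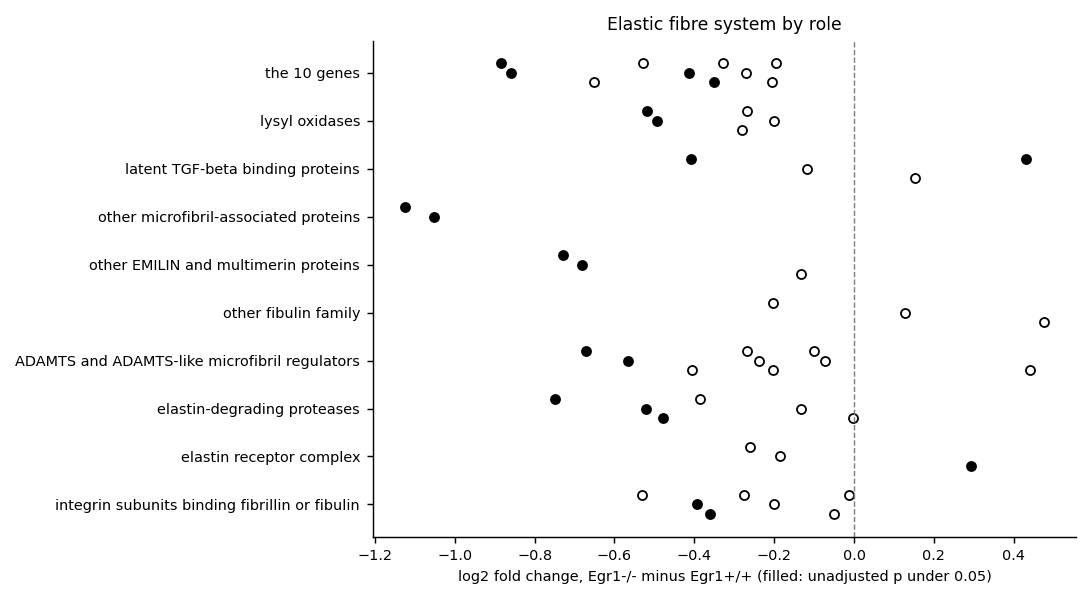
Log2 fold change (x axis, Egr1-/- minus Egr1+/+) of the 10 genes and of 42 tested genes of the elastic fibre system, in rows by role; filled points have an unadjusted p under 0.05. Most rows lie to the left of 0, and the filled points to the right are Ltbp2 and Neu1.

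The genes whose profile over the 6 mice came nearest to the mean profile of the 10 genes, among 8036 other genes of sufficient expression, were *Bmp1*, *Dstn*, *Tek*, *Gab2* and *Arhgap10*. The measure was the root mean square difference of centred log2 CPM, which was 0.0466 for *Bmp1* and 0.0587 for *Arhgap10*. By the same measure the 10 genes themselves lay between 0.0916 (*Fbln2*) and 0.314 (*Emilin1*) from their own mean. The 10 genes were not picked for a small distance, while the genes above were, so these distances cannot be compared. *Bmp1*, a protease that trims procollagens and activates lysyl oxidase, went from 24.9 to 18.3 CPM in the mean (log2 fold change -0.44).

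In whole fat pads, fewer cells of a type and less RNA per cell cannot be told apart. The summed expression of 8 markers of stromal progenitors and fibroblasts, cells that make elastic fibre proteins, was 478, 480 and 478 CPM in *Egr1*+/+ mice and 384, 316 and 303 CPM in *Egr1*-/- mice, or 69.9% of the *Egr1*+/+ mean. The genotypes did not overlap in this sum. Of all tested genes taken singly, 8.1% were lower in every *Egr1*-/- mouse. At an unadjusted p under 0.05 in edgeR, 5 of the 8 markers were lower and 1, *Icam1*, higher, against 5.6% and 5.06% of all tested genes. The most highly expressed, *Cd34*, also marks endothelium, and was at -0.71, followed by *Pdgfra* at -0.48 on the log2 scale. Relative to this sum in the same mouse, *Fbn1* was at 108%, 118% and 106% in *Egr1*+/+ mice and at 94.9%, 77.0% and 83.5% in *Egr1*-/- mice. *Fbn1* and *Efemp1* were thus lower in every *Egr1*-/- mouse also relative to the stromal markers, by -0.38 and -0.36 on the log2 scale. Relative to the same sum *Fbln5* and *Efemp2* were higher in every *Egr1*-/- mouse, by 0.24 and 0.18, and the other 6 genes overlapped between genotypes. Against the sum without *Cd34*, or against *Pdgfra* alone, *Fbn1* and *Efemp1* remained lower and separate (-0.47 and -0.45, and -0.43 and -0.40), and the other 8 genes overlapped. These ratios were added after the values were seen and carry no test. The stromal sum was itself lower in *Egr1*-/- mice, so a gene with equal CPM in both genotypes would have a higher ratio there. The share of all tested genes that are separate under the same divisions was not computed. The separations in these ratios are therefore not set against a background.

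Among the other cell types, marker sums of adipocytes, macrophages and Schwann cells were separate between the genotypes, and the rest overlapped. Such a separation as lower was seen in 8.1% of all tested genes taken singly. Smooth muscle and pericyte markers, from the vessel wall, summed to 448 to 666 CPM in *Egr1*+/+ and 391 to 591 CPM in *Egr1*-/- mice over 8 of 8 genes. Of these 8 genes, 6 had a negative and 2 a positive log2 fold change. *Cspg4* was higher (0.65, standard error 0.166) at an unadjusted p under 0.05 in edgeR. Endothelial markers summed to 373 to 472 and 343 to 514 CPM over 6 of 6 genes, with *Egr1*-/- mouse 1 the highest. Of these 6 genes, 2 had a negative and 4 a positive log2 fold change. *Tek*, also among the 5 genes nearest in profile above, was lower (-0.44, standard error 0.158) at an unadjusted p under 0.05 in edgeR. Macrophage markers, over 6 of 6 genes, were separate, with 289 to 391 CPM in *Egr1*+/+ and 224 to 262 CPM in *Egr1*-/- mice. The ratio of the *Egr1*-/- to the *Egr1*+/+ mean was 0.697. Schwann cell markers were separate too, at 235 to 336 and 162 to 208 CPM over 5 of 5 genes, with a ratio of 0.701. Adipocyte markers, which define the tissue, were present in every mouse and separate, at 6221 to 6680 CPM in *Egr1*+/+ and 5002 to 6042 CPM in *Egr1*-/- mice over 8 of 8 genes. Within that list 5 genes had a negative and 3 a positive log2 fold change. *Fabp4*, the largest part of the sum, overlapped between the genotypes (-0.20). At an unadjusted p under 0.05 in edgeR, 3 of the 8 were lower and 1 higher, against 5.6% and 5.06% of all tested genes. Those lower were *Lep* (-0.57), *Retn* (-0.44) and *Adipoq* (-0.41), and *Lipe*, a lipase, was higher (0.36). *Plin1* and *Pnpla2* were at 0.11 and 0.27. Skeletal muscle markers varied between 204 and 3313 CPM in *Egr1*+/+ and between 95.9 and 2590 CPM in *Egr1*-/- mice, without following the genotype. Lymphocyte markers (396 to 429 and 302 to 651 CPM) and mammary epithelial markers (0.815 to 9.99 and 5.27 to 8.29 CPM) overlapped. *Ptprc* made up most of the lymphocyte sum, with a mean of 332 of 408 CPM in *Egr1*+/+ mice, and was at 0.08. All 6 lymphocyte genes had a positive log2 fold change, with a median of 0.45. Of these, 1, *Cd79a* (0.93), was higher at an unadjusted p under 0.05 in edgeR, against 5.06% of all tested genes. The part of any of these cells in the lower level of the elastic fibre genes was not tested.

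**Figure D5:**
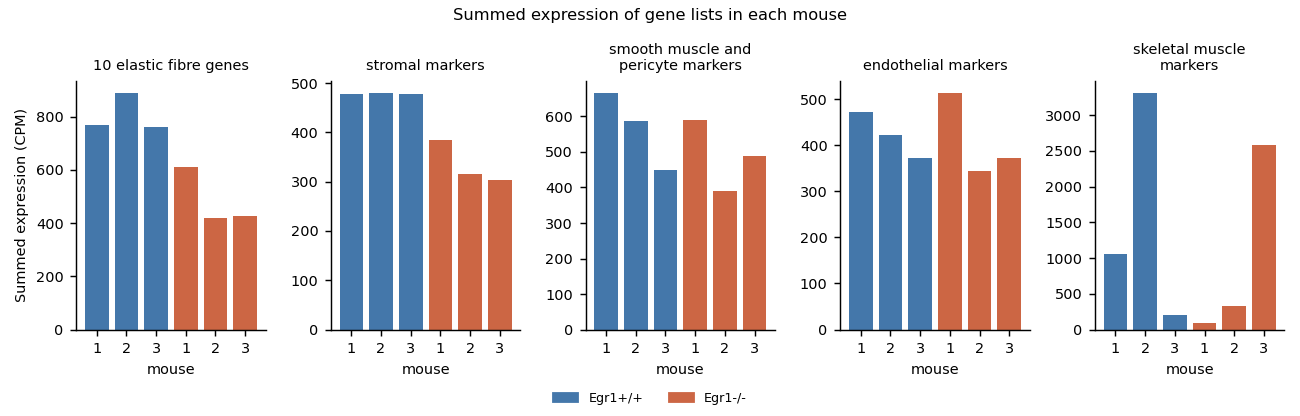
Summed expression (CPM, linear axes from 0) of the 10 genes and of 4 marker lists in each mouse; blue bars are Egr1+/+ mice 1 to 3 and red bars Egr1-/- mice 1 to 3. The elastic fibre and stromal sums are lower in each Egr1-/- mouse than in each Egr1+/+ mouse, and the smooth muscle, endothelial and skeletal muscle sums overlap. Sums of adipocyte, macrophage and Schwann cell markers, not drawn here, were also lower in each Egr1-/- mouse.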

How the data were processed

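RNA of the inguinal SC-WAT of 6 female mice was sequenced after ribosomal RNA depletion with a strand-specific library kit, 1 library for each animal. Reads were mapped by the authors to GRCm38/mm10 with TopHat2 and Bowtie2, counted per gene with featureCounts and deposited as raw counts, which are whole numbers without normalization. The strand and multimapping settings of the counting are not given in the sources used here.

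Names and positions were taken from GENCODE M21 (GRCm38). Of 47069 Ensembl identifiers, 46574 were matched after the version was dropped. Genotypes come from the sample titles. The main test was that of edgeR 4.0.16 in R 4.3.3 (TMM, filterByExpr, quasi-likelihood, no covariate), and DESeq2 1.42.0 and limma 3.58.1 (voom) were alternatives. Benjamini-Hochberg adjustment covered all tested genes, with a threshold of 0.05. Log2 CPM used a prior count of 2. RPKM divides CPM by the union of annotated exons in kilobases. Each standard error was derived from the fold change and its F statistic, and 95% intervals use the degrees of freedom of the fit. Exact permutation tests of 3 mice against 3 cannot give a p below 0.1. Other alternatives were RLE, upper-quartile and total-count normalization, mitochondrial genes left out, other filters, a replicate block, and each mouse omitted in turn. Ratios between the 10 genes and to the stromal markers were added after the data were seen.

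The 10 genes and the lists were chosen with earlier results of these data known. Named genes are the 10, *Egr1*, genes of the wider list with an unadjusted p under 0.05 (at most 3 per role) or too low to be tested, the 5 nearest in profile with a mean log2 CPM of at least 3, and the 2 most expressed markers of a list where examples are given. Other genes named (*Lox*, *Ctss*, *Itgav*, *Itga5*, *Fbln7*, *Hmcn1*, *Hmcn2*, *Icam1*, *Cspg4*, *Lipe*, *Lep*, *Retn*, *Plin1*, *Pnpla2*, *Ptprc*, *Cd79a* and genes overlapping the 10) were chosen after their values were seen. Promoter windows are those of RefSeq for GRCm38.p6.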

Additional observations from a re-analysis of the deposited data

How the results depend on the processing

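Under 15 alternatives, 149 of 150 log2 fold changes of the 10 genes were below 0, and the exception was *Fbln1*, at 0.0024 without *Egr1*+/+ replicate 2 (-0.41 to 0.0024 with each mouse left out). The median of the 10 genes was between -0.54 and -0.37 under the alternatives with all mice and between -0.56 and -0.30 with a mouse left out. Total-count normalization moved the median of all genes to -0.15, so changes under it are relative to that shift. The number of the 10 genes past the adjusted threshold was 0 in edgeR, 2 with DESeq2, 2 with total-count normalization, 3 without a filter on low counts (*Fbn1*, *Efemp1* and *Mfap5*), and 0 to 2 with a mouse left out. The number lower at an unadjusted p under 0.05 was 4 (5.6% of all genes), 5 with DESeq2 (5.48%) and limma-voom (5.7%), 6 without a filter (4.02%), 7 with total-count normalization (7.92%), and 2 to 8 with a mouse left out (3.8% to 7.26%), the highest being without *Egr1*-/- replicate 1. Over all genes, the number past the adjusted threshold was 3 in edgeR, 0 with upper-quartile normalization or with CPM over 1 in at least 3 mice, 1 with limma-voom, 79 with total-count normalization, 366 with DESeq2, 552 without a filter, and 0 to 59 with a mouse left out. *Egr1* passed the adjusted threshold at -2.39 with total-count normalization, -2.18 without a filter and -2.19 with DESeq2 and at -2.35 without *Egr1*-/- replicate 1, and ran from -2.39 to -1.84 with a mouse left out. In the wider list, 2 genes were higher at an unadjusted p under 0.05, 0 with total-count normalization, 1 with RLE normalization, without a filter, with DESeq2 and with limma-voom, and 0 to 2 with a mouse left out. The cause of these differences was not tested.

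Same-numbered mice had correlations of -0.0888, 0.106 and -0.126 after the genotype means were removed, and 2 of 6 mice correlated best with their own number, so the numbers were not taken as pairs. With the replicate block, 0 genes passed the adjusted threshold over all genes and 0 among the 10, 4 of the 10 were lower at an unadjusted p under 0.05 (5.89% of all genes), with *Fbn2* gained (edgeR unadjusted p = 0.0377) and *Eln* lost (edgeR unadjusted p = 0.0527). In the wider list 1 gene was higher, *Neu1* being lost (edgeR unadjusted p = 0.0744).

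With 3 mice per genotype, the 95% intervals of 6 of the 10 genes include no difference. Their lower ends are at 60.1% of the *Egr1*+/+ level for *Fbln1*, 38.1% for *Mfap5*, 47.6% for *Fbn2*, 65.1% for *Fbln5*, 59.6% for *Efemp2* and 67.2% for *Emilin1*.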
